A study of Mus musculus with 126 samples.

Results

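The 7 genes described here encode proteins of the methyl-CpG binding families: Mbd1, Mbd2, Mbd3 and Mbd4, which carry a methyl-CpG binding domain, and Zbtb33, Zbtb4 and Zbtb38, which bind methylated DNA through zinc fingers. They were taken by gene symbol from a table of 23420 genes, where all 7 were found, and all 7 were among the 15822 genes with enough counts to be tested. The choice used no measured value, and the list does not hold every protein that binds methylated DNA. Their levels were followed in 8 RNA-seq libraries of mouse embryonic stem cells, out of 126 samples in the series. Its question is how transcription factors find their sites when CpG methylation or histone deacetylation is removed, and the other 118 samples were not analysed here.

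J1 cells served as wild type, and the TKO cells carry the genotype Dnmt1-/-, Dnmt3a-/-, Dnmt3b-/- on the J1 strain, so they lack the enzymes that set and maintain CpG methylation. Cells of each genotype were kept for 36 h in Trichostatin A (TSA, an inhibitor of histone deacetylases) at a labelled 5 ng/µl, or in 0.0033% DMSO, its solvent. This gave 4 groups of 2 libraries: DMSO wild type, TSA wild type, DMSO TKO and TSA TKO. All cells grew on gelatin in serum with leukaemia inhibitory factor. The labels do not name the clone or clones behind the TKO cells, so a difference between the genotypes cannot be told apart from a difference between cell lines. They call the libraries biological replicates without saying what separates them. The p-values set a difference against the spread between these libraries, shared across genes.

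Proteins of this kind are the readers of CpG methylation. Mbd2 binds methylated CpGs and is a subunit of NuRD, a complex that joins histone deacetylases with a chromatin remodeller. Mbd3 takes the same place in NuRD, but the mammalian protein has lost selective binding to methylated CpGs, and in embryonic stem cells NuRD with Mbd3 is known for its part in leaving the pluripotent state. Mbd1 represses through partners such as Atf7ip and Setdb1. Mbd4 is a DNA glycosylase that removes thymine from the mismatches that arise when methylated cytosine is deaminated. Zbtb33, also called Kaiso, binds methylated CGCG and an unmethylated motif and recruits the N-CoR corepressor, and Zbtb4 and Zbtb38 are its relatives.

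The start regions of 5 members (Mbd3, Mbd4, Zbtb33, Zbtb4 and Zbtb38) were matched by symbol in a RefSeq table of 32851 windows, each 300 bases long, with 250 bases before a transcript start and 50 after it (build GRCm38.p6). Since these genes are measured where CpG methylation is present or lost, the number of CpGs at the start is shown. The windows of the members that fell with TSA in at least 1 genotype (Mbd3, Zbtb38), of a member that rose with TSA in wild type (Mbd4) and of a member with no called difference (Zbtb33) are printed here 5′ to 3′ on the strand of the gene, with each CpG in capitals. The windows lie on the minus strand at chr10:80399482-80399781 for Mbd3, chr6:115853292-115853591 for Mbd4 and chr9:96731626-96731925 and chr9:96719801-96720100 for Zbtb38, and on the plus strand at chrX:38189543-38189842 for Zbtb33.
Mbd3: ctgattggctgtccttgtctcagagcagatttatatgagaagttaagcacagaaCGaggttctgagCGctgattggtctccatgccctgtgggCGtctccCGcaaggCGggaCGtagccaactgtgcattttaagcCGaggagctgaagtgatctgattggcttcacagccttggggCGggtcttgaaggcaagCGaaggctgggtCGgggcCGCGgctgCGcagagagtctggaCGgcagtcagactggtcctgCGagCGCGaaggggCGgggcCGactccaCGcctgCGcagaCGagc
Mbd4: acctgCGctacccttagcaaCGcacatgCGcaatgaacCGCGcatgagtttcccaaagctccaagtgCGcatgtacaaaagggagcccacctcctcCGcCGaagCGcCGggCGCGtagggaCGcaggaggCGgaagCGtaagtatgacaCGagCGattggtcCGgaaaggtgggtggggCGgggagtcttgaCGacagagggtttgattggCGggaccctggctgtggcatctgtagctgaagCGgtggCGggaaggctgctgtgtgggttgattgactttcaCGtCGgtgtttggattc
Zbtb33: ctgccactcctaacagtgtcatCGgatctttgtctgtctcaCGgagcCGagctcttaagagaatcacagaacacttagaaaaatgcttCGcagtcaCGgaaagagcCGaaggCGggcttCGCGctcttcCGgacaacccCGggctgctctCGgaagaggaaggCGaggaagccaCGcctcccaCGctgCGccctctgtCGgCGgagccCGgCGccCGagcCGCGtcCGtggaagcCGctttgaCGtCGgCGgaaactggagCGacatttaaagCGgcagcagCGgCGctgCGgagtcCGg
Zbtb38, upstream start: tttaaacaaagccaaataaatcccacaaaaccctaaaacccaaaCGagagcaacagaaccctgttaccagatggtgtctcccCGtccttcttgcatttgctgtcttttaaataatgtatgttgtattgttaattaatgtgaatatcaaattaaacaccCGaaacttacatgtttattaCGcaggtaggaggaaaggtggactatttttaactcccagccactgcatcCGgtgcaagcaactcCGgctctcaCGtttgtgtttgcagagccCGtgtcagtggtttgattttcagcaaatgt
Zbtb38, downstream start: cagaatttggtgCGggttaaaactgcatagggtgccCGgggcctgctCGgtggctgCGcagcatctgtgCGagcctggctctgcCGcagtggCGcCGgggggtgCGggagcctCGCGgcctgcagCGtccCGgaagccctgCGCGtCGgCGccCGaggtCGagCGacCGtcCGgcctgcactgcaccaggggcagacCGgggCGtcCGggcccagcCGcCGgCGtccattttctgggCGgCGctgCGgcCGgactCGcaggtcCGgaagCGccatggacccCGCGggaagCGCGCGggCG

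The median window in the table held 7 CpGs. The window of Zbtb33 held 34, at percentile 93.0 of all windows, that of Mbd4 held 25 (percentile 83.1), and those of Mbd3 and Zbtb4 held 22 each (percentile 78.5). Zbtb38 had 3 windows that differed among themselves. The upstream start held 8 CpGs at a GC content of 41.0%, and the downstream starts held 41 and 25 CpGs at 74.7% and 69.0%. The deposited gene model of Zbtb38 begins at the upstream, CpG-poor start, and counts per gene do not show which start was used. Letters were searched on both strands for the 5 factors that the series assayed by ChIP-seq and for Kaiso, where matches of different motifs may overlap. GGGCGG, the core read by SP1, was found in the windows of Mbd3, Mbd4 and Zbtb4 and in both downstream windows of Zbtb38, and 35.7% of all windows hold it. CGCG was found in the windows of Mbd3, Mbd4 and Zbtb33 and in both downstream windows of Zbtb38, against 38.0% of all windows. TCCTGCNA, the unmethylated Kaiso motif, was found in the window of Mbd3 and in 4.96% of all windows. The NRF1 motif (6.23% of all windows), CCGGAAGT for GABPA (3.89%), AANATGGCG for YY1 (2.38%) and CACGTG for MAX (7.15%) were not found in the members' windows. A match is a description of letters and not a bound site.

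Total counts were 13280631 to 15542527 per library, so that 3 counts correspond to 0.193 to 0.226 CPM (a gene's counts relative to the normalised library total), and each member was far above this level. Such limits cover counting error only. The 3 knocked-out genes were lower in TKO than in wild type, with log2 fold changes in DMSO of -1.78 for Dnmt1 and -3.72 for Dnmt3b (edgeR adjusted p 1.47e-06 and 5.35e-08). H1f0, a linker histone gene known to respond to deacetylase inhibitors, was at 45.2 CPM in DMSO wild type and 109 CPM in TSA wild type. All 8 embryonic stem cell markers examined were above 1 CPM in each group, and their summed level moved with the inhibitor, at 3330 to 3730 CPM in DMSO wild type, 1900 to 2130 in TSA wild type, 4140 to 4490 in DMSO TKO and 1840 to 2180 in TSA TKO. Summed markers of trophoblast (7 genes) were at 516 to 768, 1220 to 1330, 97.1 to 141 and 323 to 364 CPM in the same order, and those of fibroblasts (8 genes) at 38.5 to 45.1, 80.3 to 96.1, 11 and 36.4 to 54.5. Extraembryonic endoderm markers (7 genes) summed to 12.8 to 14.6, 17.1 to 19.6, 26.1 to 28.8 and 36.4 to 40.8 CPM, neural markers (6) to 334 to 417, 173 to 207, 294 to 323 and 158 to 166, and mesoderm markers (5) to 10.7 to 18.1, 30.6 to 34.6, 7.13 to 7.39 and 33.3 to 45.1. The fibroblast marker Dcn had no counts in TSA TKO. Single markers did not all move with their sum. For TKO against wild type in TSA, 2 of 7 trophoblast markers were called higher and 3 lower (edgeR adjusted p below 0.05). Their median log2 fold change was 0.55, and 10.0% and 8.38% of all tested genes were called higher and lower. Of 6 neural markers 2 were called higher and 4 lower with TSA in wild type, against 27.0% and 25.9%. The part of these shifts in the members' values was not tested, and in bulk RNA fewer cells of a type and less RNA per cell cannot be told apart.

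Levels between genes were compared per length, as FPKM, which is CPM divided by exon length in kilobases. Mbd3 was the most abundant member in each of the 4 groups, at 42.6 ± 5.22 FPKM in DMSO wild type, 22.3 ± 3.90 in TSA wild type, 35.3 ± 4.27 in DMSO TKO and 18.9 ± 2.25 in TSA TKO (SD, n = 2). Zbtb4 was the lowest member in each group, between 0.715 and 0.998 FPKM on average. In DMSO wild type the other members lay close together, from 10.9 FPKM for Mbd1 through 10.4 for Mbd2, 9.74 for Zbtb38 and 9.68 for Zbtb33 to 8.78 for Mbd4, and the library values of each pair of neighbours in that order overlapped. Mbd3 stood at percentile 84.0 of the tested genes there, those 5 members between percentiles 52.1 and 56.7, and Zbtb4 at percentile 20.5. The order changed with the groups. Mbd2 was the sixth of the 7 in DMSO TKO and the second in both TSA groups. Zbtb38 was the second in DMSO TKO and the sixth in both TSA groups, and in these positions the libraries of each did not overlap those of its neighbours.

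**Figure D1:**
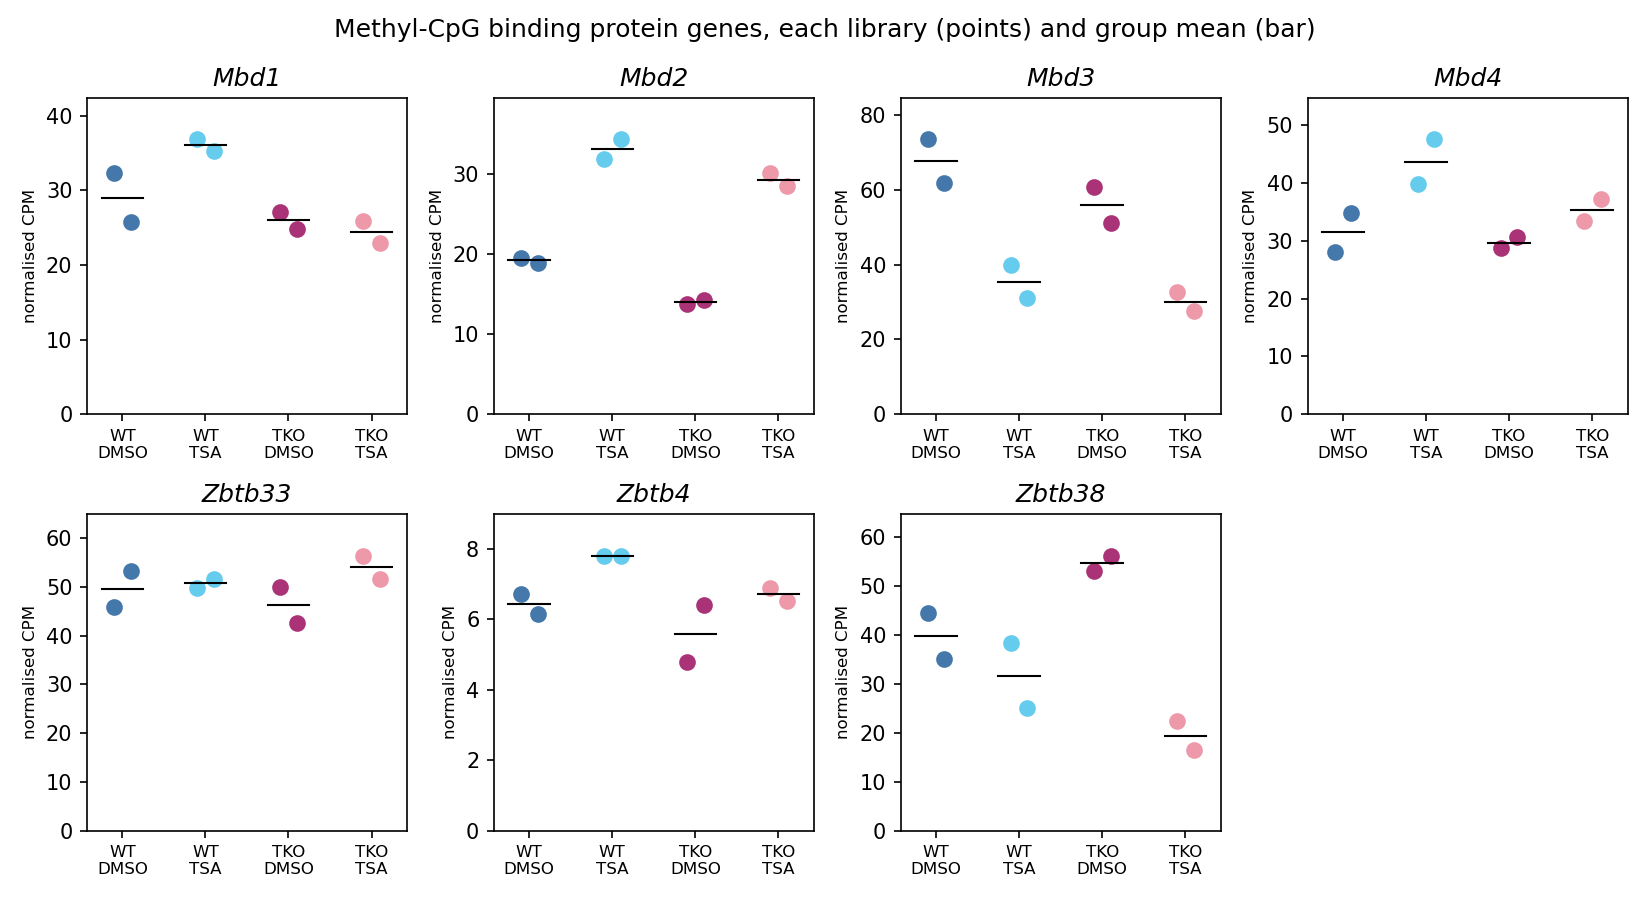
Normalised CPM (vertical axis, from 0, a separate scale for each gene) of the 7 members in the 8 libraries, grouped by genotype and treatment; each point is 1 library and the bar is the mean of 2. Mbd2 is higher and Mbd3 lower in the TSA groups of both genotypes, and Zbtb38 is highest in DMSO TKO (54.7 CPM) and lowest in TSA TKO (19.4 CPM).

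Members were compared between groups with edgeR's quasi-likelihood test, and the threshold was an adjusted p of 0.05 over all tested genes. TSA against DMSO called 3 of 7 members in wild type (Mbd2 and Mbd4 higher, Mbd3 lower), where 52.8% of all tested genes were called. In TKO it called 3 of 7 as well (Mbd2 higher, Mbd3 and Zbtb38 lower), against 58.7% of all genes. TKO against wild type called 1 of 7 in DMSO (Mbd2 lower), against 20.4%, and 2 of 7 in TSA (Mbd1 and Zbtb38 lower), against 18.4%. The comparison of TSA TKO with DMSO wild type called 3 of 7, against 61.9%: Mbd2 was higher, as were 31.7% of all genes, and Mbd3 and Zbtb38 were lower, as were 30.2%. The shares of all genes called higher and lower with TSA were 27.0% and 25.9% in wild type and 30.8% and 27.9% in TKO. Scaled by total counts alone they were 36.7% and 15.4%, and 37.3% and 20.6%, and with upper quartile scaling they were 33.9% and 17.7% in wild type. The members' share was below that of all genes in 4 of these 5 comparisons and above it for TKO against wild type in TSA, where 1 call weighs heavily among 7 genes. The median log2 fold change of the members was 0.28, 0.22, -0.16, -0.24 and 0.06 in these 5 comparisons, and that of all tested genes was between -0.01 and 0.04. The difference between the TSA effects of the genotypes was called for 0 of 7 members by edgeR and for 1.35% of all genes (0.879% higher and 0.468% lower). For 1 of the 7, Zbtb38, its unadjusted p was below 0.05, and DESeq2 called that 1 member. These comparisons share groups of libraries and are not independent of each other.

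**Figure D2:**
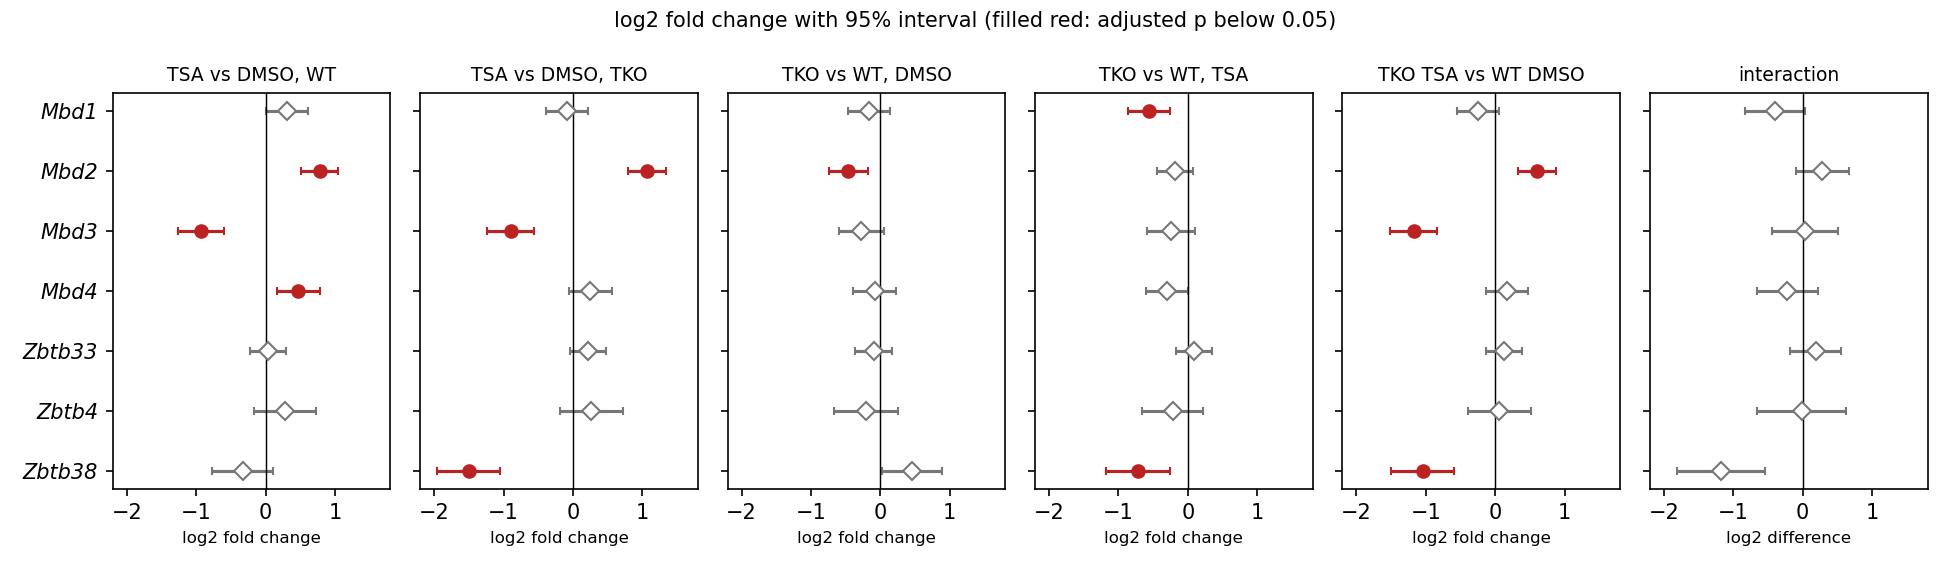
The log2 fold change of the 7 members (horizontal axis, with the 95% interval from the fit) in 5 comparisons, and in the last panel the difference of the TSA effects, TKO minus wild type; filled red circles have an edgeR adjusted p below 0.05 and open grey diamonds do not. The intervals of Mbd2 lie above 0 and those of Mbd3 below 0 for TSA in both genotypes, and Zbtb38 has the largest decrease (-1.50, TSA in TKO).

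The subunits that occupy the same place in NuRD moved in opposite directions with TSA. Mbd2 (chromosome 18, 70568292 to 70626131, plus strand, 7 exons in the deposited table) was at 19.6 and 19.0 CPM in the DMSO wild type libraries and at 31.9 and 34.4 CPM with TSA. In TKO it was at 13.8 and 14.3 CPM in DMSO and at 30.1 and 28.5 CPM with TSA. The TSA libraries lay above the DMSO libraries of either genotype with no overlap. The log2 fold change for TSA was 0.78 ± 0.12 (SE) in wild type, a 1.72-fold rise, and 1.07 ± 0.12 in TKO, a 2.09-fold rise (edgeR adjusted p 0.000399 and 4.11e-05). The interaction, 0.28 with a 95% interval from -0.10 to 0.66, was not called (edgeR adjusted p 0.507).

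Mbd3 (chromosome 10, 80392541 to 80399479, minus strand, 7 exons) was at 73.6 and 61.8 CPM in DMSO wild type and at 39.9 and 31.1 CPM with TSA. In TKO it was at 60.8 and 51.2 CPM in DMSO and at 32.6 and 27.5 CPM with TSA. Again the treatments did not overlap, in the opposite direction to Mbd2. TSA lowered Mbd3 to 0.525 of its DMSO level in wild type and to 0.537 in TKO, with log2 fold changes of -0.93 ± 0.15 and -0.90 ± 0.15 (SE; edgeR adjusted p 0.00053 and 0.000509). The interaction was 0.03, with a 95% interval from -0.44 to 0.51. The calls of Mbd2 and Mbd3 for TSA held in each of the 15 alternative fits, with adjusted p-values up to 0.00523 and 0.00807.

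Within each library the ratio of Mbd2 to Mbd3 per length, which needs no scaling between libraries, was 0.228 and 0.263 in DMSO wild type and 0.194 and 0.239 in DMSO TKO. With TSA it was 0.688 and 0.949 in wild type and 0.793 and 0.888 in TKO. All 4 TSA libraries therefore had a higher ratio than all 4 DMSO libraries. The mean log2 difference was 1.72 in wild type and 1.96 in TKO, and 1.84 over both genotypes, with a two-sided exact permutation p of 0.0556 within genotypes, which is the smallest p that the 36 arrangements allow. This ratio was chosen after the values of its genes were seen. Mbd3 stayed above Mbd2 in each library, and in the TSA libraries the 2 genes were at 17.9 against 22.3 FPKM in wild type and 15.8 against 18.9 FPKM in TKO on average.

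**Figure D3:**
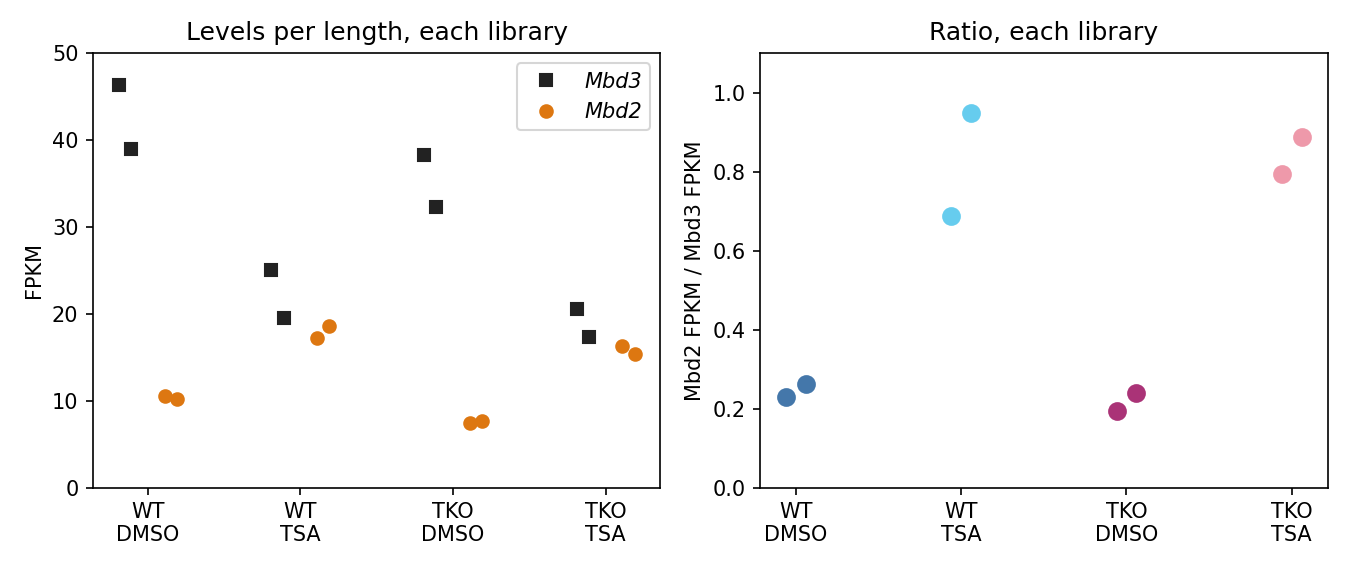
Left, level per length (FPKM, axis from 0) of Mbd3 (squares) and Mbd2 (circles) in each library of the 4 groups; right, the ratio of Mbd2 to Mbd3 in each library. The ratio lies between 0.194 and 0.263 in the 4 DMSO libraries and between 0.688 and 0.949 in the 4 TSA libraries.

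Between the genotypes 1 of these genes was called, in 1 treatment. Mbd2 was lower in TKO than in wild type in DMSO, at 14.0 ± 0.36 against 19.3 ± 0.42 CPM (SD, n = 2; log2 fold change -0.46 ± 0.13 SE, edgeR adjusted p 0.0268). This call was lost without replicate 1 of DMSO wild type (adjusted p 0.0819) and without replicate 1 or 2 of DMSO TKO (0.133 and 0.108) with log2 fold changes of -0.45, -0.43 and -0.48. DESeq2 (0.0647) and a fit of only the DMSO groups (0.0751) did not call it either. In TSA the log2 fold change of Mbd2 between the genotypes was -0.18 (95% interval -0.44 to 0.08). For Mbd3 it was -0.27 (-0.60 to 0.05) in DMSO and -0.24 (-0.58 to 0.10) in TSA, neither of which was called. With both changes together, TSA TKO against DMSO wild type, Mbd2 was 1.52-fold higher and Mbd3 at 0.444 of its level (edgeR adjusted p 0.00132 and 7.13e-05).

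The other 13 NuRD genes examined were mostly lower with TSA. In wild type 9 of 13 fell, against 25.9% of all tested genes called lower, and 1 rose; in TKO 8 of 13 fell, against 27.9%, and 1 rose. Their median log2 fold change was -0.46 and -0.33, against 0.01 and 0.04 over all genes. Cdk2ap1, a small subunit, fell most, from 22.8 and 17.3 CPM to 6.59 and 4.75 in wild type and from 18.7 and 14.3 to 3.92 and 4.71 in TKO (log2 fold change -1.82 and -1.93, edgeR adjusted p 0.000101 and 5.14e-05). Mta1, a scaffold subunit, fell by 0.73 and 0.74 on the log2 scale (edgeR adjusted p 0.000238 and 0.000162). The remodeller Chd3 fell in both genotypes (log2 fold change -0.53 in wild type and -1.06 in TKO, edgeR adjusted p 0.0137 and 0.000194). Chd5, a related remodeller, fell in TKO (-1.33, edgeR adjusted p 0.00129) and was not called in wild type (-0.47, 0.14). The gene that rose was Rbbp7, a histone-binding subunit, by 0.69 and 0.58 (edgeR adjusted p 0.000425 and 0.000933). Chd4, the main remodeller of the complex in these cells, fell by 0.26 in wild type (757 to 632 CPM, edgeR adjusted p 0.021) and had a log2 fold change of -0.09 in TKO that was not called. Mta2 fell in both genotypes (log2 fold change -0.46 and -0.31, edgeR adjusted p 0.00858 and 0.0493), Gatad2a passed the test in wild type (-0.29) and not in TKO (-0.07), and the deacetylase gene Hdac1 passed in neither (0.20 and 0.29). Hdac2, the other deacetylase gene of the list, was at 93.9 and 109 FPKM in DMSO wild type, against 7.10 and 8.22 for Hdac1. It fell with TSA in wild type (-0.27, edgeR adjusted p 0.0316) and was not called in TKO (-0.23, 0.0547). Under scaling by total counts alone the number of falling genes was 4 of 13 in wild type and 5 of 13 in TKO. The shares of all genes called lower were then 15.4% and 20.6%, and the median of all genes stood at 0.22 and 0.19 on the log2 scale.

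**Figure D4:**
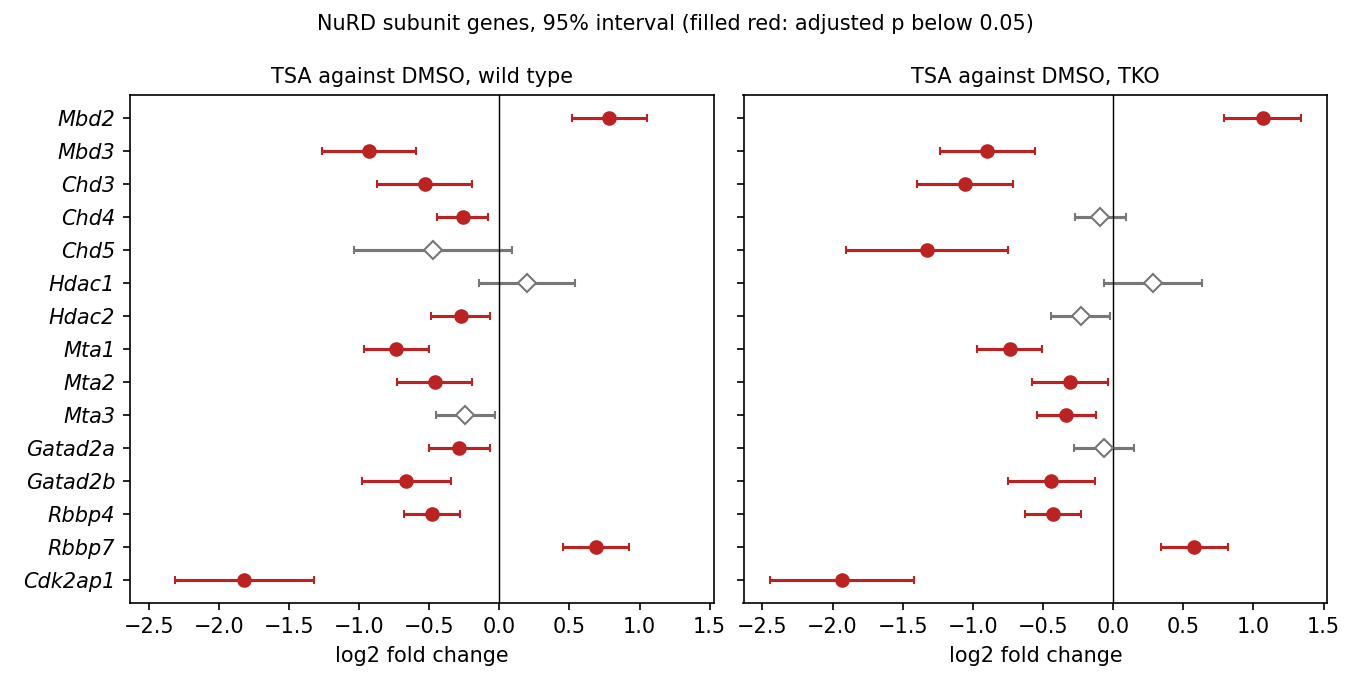
The log2 fold change of TSA against DMSO (horizontal axis, same scale in both panels, with 95% intervals) for Mbd2, Mbd3 and 13 other NuRD subunit genes in wild type (left) and TKO (right); filled red circles have an edgeR adjusted p below 0.05. Mbd2 and Rbbp7 lie above 0 and Mbd3, Cdk2ap1 and Mta1 below 0 in both panels.

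In the comparison of genotypes, 1 of the 13 NuRD genes was called in each treatment, Rbbp7 both times (log2 fold change -0.50 in DMSO and -0.61 in TSA, edgeR adjusted p 0.00834 and 0.00343). The share called lower over all genes was 10.7% and 8.38%. With both changes together 7 of 13 fell, against 30.2% of all genes.

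Mbd1 (chromosome 18, 74268288 to 74282684, plus strand, 15 exons) was lower in TKO than in wild type under TSA. It was at 32.3 and 25.8 CPM in DMSO wild type and 36.9 and 35.3 CPM in TSA wild type, and at 27.1 and 24.9 CPM in DMSO TKO and 26.0 and 23.0 CPM in TSA TKO. The 2 TSA wild type libraries were above the 6 others. TKO was at 0.678 of wild type in TSA (log2 fold change -0.56 ± 0.14 SE, edgeR adjusted p 0.0168). That call was lost without replicate 1 of TSA wild type (-0.53, adjusted p 0.112) and without replicate 2 of TSA TKO (-0.47, 0.126). The TSA effect was 0.31 in wild type (95% interval 0.01 to 0.61, edgeR adjusted p 0.0759) and -0.09 in TKO (-0.39 to 0.22), and neither was called. In wild type the TSA effect passed the threshold in 4 of 15 alternatives, among these total counts as the only scaling (0.51, adjusted p 0.0088), upper quartile scaling (0.46, 0.013) and the fit without replicate 1 of DMSO wild type (0.48, 0.0223). The difference between the 2 effects, -0.40 (-0.83 to 0.03), was not called (edgeR adjusted p 0.388), so the genotypes were not shown to respond differently. Without replicate 2 of DMSO wild type the comparison of TSA TKO with DMSO wild type called Mbd1 (-0.41, adjusted p 0.03), where the value from 8 libraries was -0.25 (0.14).

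Mbd4 (chromosome 6, 115840697 to 115853341, minus strand, 8 exons) was at 28.1 and 34.8 CPM in DMSO wild type and 39.7 and 47.5 CPM in TSA wild type. In TKO it was at 28.7 and 30.6 CPM in DMSO and 33.5 and 37.2 CPM in TSA. The TSA libraries were above the DMSO libraries within each genotype. The difference was called in wild type, a 1.39-fold rise (log2 fold change 0.47 ± 0.14 SE, edgeR adjusted p 0.0149), and not in TKO (0.25, 95% interval -0.06 to 0.56, edgeR adjusted p 0.143). Without replicate 1 of DMSO wild type or replicate 2 of TSA wild type the wild type value was 0.32 or 0.34 and was not called (adjusted p 0.105 and 0.136), and under scaling by total counts alone the TKO value was called (0.40, adjusted p 0.0324). The interaction was -0.22 (-0.65 to 0.22).

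Mbd4 begins 187 bases from the start of Ift122 on the other strand (chromosome 6, 115853528 to 115926699), a gene of intraflagellar transport, so the printed Mbd4 window also holds the start of Ift122. Their exons share no base in the table. Ift122, named after its values were seen, was at 15.8 ± 0.50 CPM in DMSO wild type, 33.2 ± 0.09 in TSA wild type, 10.2 ± 0.54 in DMSO TKO and 28.4 ± 2.09 in TSA TKO (SD, n = 2). It rose with TSA by 1.08 in wild type and by 1.48 in TKO on the log2 scale (edgeR adjusted p 8.19e-05 and 8.89e-06), against 0.47 and 0.25 for Mbd4. It was lower in TKO than in wild type in DMSO (log2 fold change -0.63, edgeR adjusted p 0.00839), where Mbd4 had a value of -0.08 (95% interval -0.40 to 0.23).

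Of 11 genes that act with Mbd4 in base excision or mismatch repair, 6 fell with TSA in wild type, and 7 fell and 1 rose in TKO, against 25.9% and 27.9% of all genes called lower. Msh6, which recognises mismatches, fell by 0.91 and 0.90 on the log2 scale (edgeR adjusted p 4.17e-05 and 2.06e-05). Apex1, the endonuclease that cuts abasic sites, fell by 0.64 and 0.87 (edgeR adjusted p 0.000597 and 5.35e-05). The glycosylase gene Neil2 fell by 0.98 and 1.26 (edgeR adjusted p 0.00107 and 0.000304), and its relative Neil3 was the gene that rose in TKO (0.67, edgeR adjusted p 0.0111). Scaling by total counts alone gave 3 of 11 lower and 1 higher in wild type, against 15.4% and 36.7% of all genes. In TKO it gave 6 lower and 1 higher, against 20.6% and 37.3%. In TKO against wild type 1 of 11 fell in DMSO (Neil2, -0.80, edgeR adjusted p 0.00958), against 10.7% of all genes.

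The zinc finger members differed among themselves. Zbtb33 (X chromosome, 38189793 to 38197046, plus strand, 2 exons) had no called difference. It was at 46.0 and 53.2 CPM in DMSO wild type, 49.8 and 51.7 in TSA wild type, 49.9 and 42.7 in DMSO TKO and 56.5 and 51.6 in TSA TKO. The wild type groups overlapped, and the TSA libraries of TKO lay above its DMSO libraries by little. The log2 fold change for TSA was 0.03 in wild type (95% interval -0.23 to 0.30) and 0.22 in TKO (-0.04 to 0.48), and for TKO against wild type -0.10 in DMSO (-0.36 to 0.17) and 0.09 in TSA (-0.17 to 0.35). Scaled by total counts alone, the TSA value in TKO was 0.37 and was called (adjusted p 0.0169), as was TSA TKO against DMSO wild type (0.29, adjusted p 0.0443).

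Zbtb4 (chromosome 11, 69765912 to 69784026, plus strand, 4 exons) had the fewest counts of the members, 70 to 128 per library. It was at 6.71 and 6.16 CPM in DMSO wild type, 7.81 in both TSA wild type libraries, 4.79 and 6.40 in DMSO TKO and 6.90 and 6.53 in TSA TKO. Group means ran from 5.59 to 7.81 CPM and no comparison called the gene. Its log2 fold change for TSA was 0.28 in wild type (95% interval -0.17 to 0.73) and 0.26 in TKO (-0.19 to 0.72), so a rise of the size seen in Mbd4 lies within these intervals.

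Zbtb38 (chromosome 9, 96685423 to 96731675, minus strand, 3 exons) had the largest log2 fold change of the members in either direction, for TSA in TKO. In TKO it was at 53.1 and 56.2 CPM in DMSO and at 22.3 and 16.4 CPM with TSA, a fall to 0.354 of the DMSO level (log2 fold change -1.50 ± 0.21 SE, edgeR adjusted p 0.000119). In wild type it was at 44.5 and 35.2 CPM in DMSO and at 38.3 and 25.1 CPM with TSA, and these libraries overlapped. The wild type difference was -0.33 (95% interval -0.77 to 0.11, edgeR adjusted p 0.189). The fall in TKO was called in each of the 15 alternative fits, with values from -1.74 to -1.29. The direct test of the difference between the TSA effects gave -1.17 ± 0.29 (SE; 95% interval -1.80 to -0.54), with an unadjusted p of 0.00176 and an edgeR adjusted p of 0.0795. Over the 14 alternatives that adjusted p ran from 0.00757 to 0.269, and it passed the threshold in 4 of them, among these DESeq2 (0.00757), no filter on low counts (0.0109) and the fit without replicate 2 of TSA wild type (-1.44, 0.0283).

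The genotype effect on Zbtb38 had a different sign in each treatment. In DMSO the TKO libraries were above the wild type libraries (log2 fold change 0.45 ± 0.20 SE, edgeR adjusted p 0.133), and in TSA they were below them (-0.72 ± 0.21, edgeR adjusted p 0.0346). The call in TSA was lost in a fit of only the TSA groups (-0.73, adjusted p 0.0517), without replicate 1 of TSA wild type (-0.38, adjusted p 0.335), without replicate 2 of TSA TKO (-0.51, 0.224) and without either DMSO TKO library (-0.72, 0.055). Without replicate 1 of TSA wild type the TSA effect in wild type was itself called (-0.67, adjusted p 0.0208). The TSA wild type libraries, 38.3 and 25.1 CPM, had the largest spread of the 4 groups for this gene. TSA TKO was at 0.484 of DMSO wild type (log2 fold change -1.05 ± 0.21 SE, edgeR adjusted p 0.00118).

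In the deposited gene models, 101 exon bases of Zbtb38 lie inside an exon of E030011O05Rik on the same strand (chromosome 9, 96731575 to 96752831). They are 2.47% of the exon length of Zbtb38 and 13.2% of that of E030011O05Rik, and reads from there cannot be told apart. E030011O05Rik was at 3.58 ± 1.40, 4.69 ± 0.10, 3.84 ± 0.18 and 1.27 ± 0.07 CPM (SD, n = 2) in DMSO wild type, TSA wild type, DMSO TKO and TSA TKO. Like Zbtb38 it fell with TSA in TKO (log2 fold change -1.59, edgeR adjusted p 0.00161) and did not pass the test in wild type (0.38, edgeR adjusted p 0.277). The part of shared reads in the values of either gene was not tested. The other members share no exon base with another gene of the table.

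The cofactors of the zinc finger members and of Mbd1 were followed as 13 genes. With TSA 4 fell and 1 rose in wild type, against 25.9% and 27.0% of all genes, so that the number falling was near the background. In TKO 7 fell and 2 rose, against 27.9% and 30.8%. Ncor1, the corepressor that Kaiso recruits, was at 292 and 304 CPM in DMSO wild type, 150 and 148 in TSA wild type, 381 and 372 in DMSO TKO and 193 and 169 in TSA TKO. It fell by 1.00 and 1.06 on the log2 scale with TSA (edgeR adjusted p 2.32e-05 and 7.04e-06) and was higher in TKO than in wild type in DMSO (0.34, edgeR adjusted p 0.0228). Tbl1xr1, of the same complex, fell by 1.08 and 1.11 (edgeR adjusted p 6.80e-05 and 2.88e-05), and Gps2, also of that complex, rose by 0.72 and 1.13 (0.00443 and 0.000223). Ctbp1, a corepressor known to bind Zbtb38, fell by 1.00 and 0.81 (edgeR adjusted p 0.000102 and 0.000244). Ctnnd1, the catenin that binds Kaiso, was lower in TKO than in wild type under TSA (-0.46, edgeR adjusted p 0.0215). Under scaling by total counts alone 4 of the 13 fell in TKO, against 20.6% of all genes.

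Among 8 other genes with an MBD domain, 6 were tested (Mbd3l1 and Mbd3l2 had too few counts). With TSA 3 of 6 fell in wild type, against 25.9% of all genes, and 1 of 6 when scaled by total counts alone, against 15.4%. In TKO 2 fell and 1 rose, against 27.9% and 30.8%, which with 6 genes is near the background. Baz2b was at 40.7 and 41.4 CPM in DMSO wild type and 25.1 and 21.9 with TSA, and at 28.3 and 29.1 CPM in DMSO TKO and 17.2 and 19.2 with TSA, so that it was lower with TSA and lower in TKO (log2 fold change -0.80 with TSA in wild type, -0.66 in TKO, and -0.52 for the knockout in DMSO; edgeR adjusted p 0.000362, 0.00109 and 0.0122). Mbd5 rose with TSA in TKO (0.73, edgeR adjusted p 0.000714) and was not called in wild type (0.33, 95% interval 0.04 to 0.62, edgeR adjusted p 0.0563). In TKO against wild type under TSA 3 of the 6 were higher, against 10.0% of all genes. By total counts alone 2 of 6 were higher, against 8.7%. The 3 genes were Setdb1, the methyltransferase that works with Mbd1 (0.42, edgeR adjusted p 0.00647), Mbd5 (0.49, 0.0232) and Setdb2 (0.36, 0.0442). Mbd1 was lower in that comparison (-0.56).

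Of 4 other readers of methylated DNA, Zfp57, which keeps imprinted regions methylated, was at 227 and 237 CPM in DMSO wild type and 127 and 97.3 with TSA, and at 262 and 276 CPM in DMSO TKO and 109 and 78.4 with TSA. It fell by 1.05 in wild type and 1.52 in TKO on the log2 scale (edgeR adjusted p 0.00026 and 1.74e-05), and Zfp445, with the same role, fell by 0.37 and 0.36 (0.0119 and 0.0116). Uhrf2 rose by 0.46 and 0.80 (edgeR adjusted p 0.00779 and 0.00021). Uhrf1, which brings Dnmt1 to replicated DNA, did not pass the test in these comparisons. In each genotype 2 of the 4 fell and 1 rose. Of all genes, 25.9% fell and 27.0% rose in wild type, and 27.9% and 30.8% in TKO. By total counts alone 1 of the 4 rose and 1 fell in each genotype. That scaling called 36.7% of all genes higher and 15.4% lower in wild type, and 37.3% and 20.6% in TKO. Among 4 genes 1 call weighs heavily.

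For comparison, 15 germline genes known to be silenced by promoter methylation were examined beside the readers. In DMSO 8 of 15 rose in TKO, against 9.63% of all genes called higher, with a median log2 fold change of 1.31, while the members' median was -0.16 and the 1 member called, Mbd2, was lower. The strongest was Asz1 (4.91, edgeR adjusted p 1.42e-05). With TSA 12 of 15 rose in each genotype, against 27.0% and 30.8% of all genes called higher. In wild type 1 of the 15 fell and in TKO 2 fell, against 25.9% and 27.9% of all genes called lower.

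Genes whose pattern over the 8 libraries was most like that of a called member were taken from 14420 others with a mean of at least 1 CPM, by Pearson's r of log2 CPM. They were Snrnp40 and Lin28a for Mbd3 (r of 0.998 and 0.997), Cdon and Rgs17 for Mbd2 (0.998 and 0.996), Zfp811 and Trim30a for Mbd4 (0.988 and 0.972), Klc4 and Evc2 for Zbtb38 (0.976 and 0.972) and Hsdl1 and Slc45a1 for Mbd1 (0.968 and 0.966). The 8 libraries share 4 groups, so these values follow the group means, and they are given as a description.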

How the data were processed

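Gene expression was measured in 8 RNA-seq libraries of ribosomal-RNA-depleted total RNA, made with a directional kit and sequenced in pairs, per the labels' protocols. The authors deposited raw read counts per gene with each gene's exons and summed exon length in bases. The submitters' processing notes name TopHat2 2.0.13, featureCounts 1.4.5-p1, edgeR 3.22.3 and mm10; the annotation, the strand setting and the handling of reads that map to several places are not given in the sources used here.

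Counts were tested here with edgeR 4.0.16 (limma 3.58.1, R 4.3.3): filterByExpr, TMM factors, 1 quasi-likelihood fit with a mean for each of 4 groups over 8 libraries (4 residual degrees of freedom), two-sided tests, Benjamini-Hochberg adjustment over 15822 genes. CPM (counts per library total, TMM-normalised) and FPKM use the TMM factors. Standard errors and 95% intervals are approximate, from the F statistic. An exact permutation test of 2 against 2 libraries cannot reach below 0.333, and p-values rest on spread shared across genes. Replicates of a group differed beyond counting noise (chi-square per degree of freedom 5.28 to 12.2) and each was counted. Data were simulated for TSA against DMSO in wild type (15406 genes), with 49 or 50 genes changed at each size and 1 dispersion for all genes. The fit recovered 88% of changes to 0.25-fold, 72% to 0.5-fold, 75.5% to 2-fold and 40.8% to 1.5-fold. In the real comparison 52.8% of genes were called, which makes the adjusted threshold less strict. The simulated shares therefore do not say how often a real change is missed.

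The members, lists and tests were chosen with earlier results of these data known. Named genes are the members, the 2 nearest patterns of each called member, the checks Dnmt1, Dnmt3a, Dnmt3b and H1f0, and up to 4 called genes per list and comparison with the largest change, with Chd4, Hdac1, Mta2 and Gatad2a always given. Ift122, E030011O05Rik, Uhrf1, Hdac2 and Dcn fall outside this rule and were chosen after their values were seen. Alternatives were DESeq2 1.42.0, 3 other scalings, no filter, a replicate block, only the 2 groups compared, and each library left out.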

Additional observations from a re-analysis of the deposited data

Results flagged for a closer look

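For 4 named genes every library of 1 comparison lay on one side and every library of its counterpart on the other, and in each case the edgeR interaction was not called. The share of all tested genes with such a pattern was not counted. Full separation of 2 against 2 libraries has a two-sided exact permutation p of 0.333, so the 4 genes are given as a description. TKO against wild type gave a log2 fold change for Zbtb38 of 0.45 in DMSO and -0.72 in TSA; the interaction had an unadjusted p of 0.00176 (adjusted p 0.0795). For Chd4 the same 2 values were -0.12 and 0.0519 (adjusted p of the interaction 0.56), and for Tdrkh, of the germline list, -0.37 and 0.80 (0.203). TSA against DMSO gave Atf7ip, the partner of Mbd1, a value of -0.0869 in wild type and 0.35 in TKO (0.207).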

How the results depend on the processing

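Over the alternatives, 74 counts of called members stayed within 1.5 times the count reported and 15 did not. For single members 578 values kept direction and side of the threshold, 16 passed it newly, 14 no longer passed it and 15 changed sign. Total counts as the only scaling moved the median of all genes for TSA from 0.01 to 0.22 in wild type. In TKO that median moved from 0.04 to 0.19. For TSA in TKO this scaling called 5 of 7 members (3 higher, 2 lower), against 37.3% of all genes called higher and 20.6% lower. Mbd1 there was at 0.0605 and the interaction of Mbd3 at -0.0221. Upper quartile scaling (medians 0.16 and 0.11) put that interaction at -0.0419. For the interaction, no filter on low counts, the replicate block and DESeq2 each called 1 member (Zbtb38), with 488, 633 and 394 of all genes called in place of 213. For TKO against wild type in DMSO, DESeq2 called 0 members and the replicate block 3 (Mbd2, Mbd3 at an adjusted p of 0.0487 and Zbtb38 at 0.028). For TKO against wild type in TSA, the fit of only those groups called 1. The shares of all genes called in these fits of TKO against wild type are not given here, so the counts are not a result about the members. The replicate number could pair the libraries only by number: deviations of same-numbered libraries had correlations between 0.0673 and 0.325 in the 6 pairings of groups. Under the block Mbd1 was also called for TSA in wild type (adjusted p 0.0302), and the adjusted p for the interaction of Zbtb38 was 0.0104. Leaving out 1 library at a time gave 0 to 1 members called for TKO in DMSO, 0 to 2 for TKO in TSA and 0 to 1 for the interaction, with 1458 to 3330, 941 to 3443 and 10 to 410 of all genes. The same fits changed the sign of values that were not called: Zbtb33 for TSA in wild type (-0.0710 to 0.137) and for TKO in DMSO (-0.217 to 0.0120), Mbd4 for TKO in DMSO (-0.249 to 0.0772), Zbtb4 for both changes together (-0.0048 to 0.115), and the interactions of Mbd3 (-0.13 to 0.22) and Zbtb4 (-0.21 to 0.21). The cause of these shifts was not tested. Counts of 70 to 128 limit Zbtb4 most.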
